A study of Homo sapiens with 12 samples.

Results

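The genes for albumin, alpha-fetoprotein (AFP) and other carrier proteins of the liver were followed in Huh7, an established human line of hepatocellular carcinoma, after 6 h with graphene oxide (GO) flakes and drug-loaded forms of them. The set was chosen by gene name, with earlier results of these data known, as were the lists of other genes. It held 10 of the 63677 genes in the count table: ALB, AFP, TTR, RBP4, AMBP, AHSG, SERPINA1, GC, GPC3 and CP. All 10 were found, and all 10 passed the filter on low counts (10 or more in 3 or more samples), with a lowest count of 1234 (CP). The 12 RNA-seq samples formed 4 groups with 3 replicates each. Untreated cells received medium only, GO cells received 400 µg/mL GO, GO-Rg3 cells received 400 µg/mL of GO carrying Rg3, a ginsenoside of ginseng, and GO-Rg3-DOX cells received 100 µg/mL of GO-Rg3 that was also loaded with doxorubicin (DOX), an anthracycline that blocks topoisomerase II. The GO-Rg3-DOX flakes were thus given at another dose than GO and GO-Rg3, so their values are set side by side and no test was made between them. Free Rg3 and free DOX were not analysed here, and the shares of carrier, Rg3 and DOX in a difference between GO-Rg3-DOX and untreated cells cannot be told apart. All samples are wells of the same line, and nothing in the sources used here says that replicates came from separate cultures, so p-values measure only the spread between these samples.

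Hepatocytes secrete most of the proteins of blood plasma. Albumin carries fatty acids, hormones and drugs in blood, and AFP is its fetal counterpart, which is made by the fetal liver and yolk sac, is switched off after birth and returns in many hepatocellular carcinomas, where it serves as a serum marker. The other members carry retinol and thyroid hormone (RBP4, TTR), vitamin D (GC), heme (a product of AMBP), calcium phosphate (AHSG) and copper (CP), inhibit proteases (SERPINA1) or sit on the surface of liver tumour cells (GPC3).

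Library totals ranged from 27802871 to 38877420 counts. The 8 hepatocyte markers checked, ALB, AFP, TTR, SERPINA1, APOA1, APOB, FGB and HNF4A, each had at least 158 CPM (counts per 1e6, scaled by edgeR's TMM method) in every sample. The summed CPM of 6 markers of immune, endothelial and fibroblast cells was 0.400 to 0.703 in untreated, 0.374 to 0.707 in GO, 0.257 to 0.676 in GO-Rg3 and 0.953 to 1.40 in GO-Rg3-DOX samples, and PECAM1 had 0 counts in all 12. The 3 untreated samples lay close together for the members, with a median coefficient of variation of 2.25%, against 13.8% in GO, 11.0% in GO-Rg3 and 10.3% in GO-Rg3-DOX. Mitochondrially encoded genes took 5.31 to 6.28% of counts in untreated and 6.89 to 7.42% in GO-Rg3 samples. They took 24.1, 12.1 and 14.8% in GO replicates 1 to 3 and 19.4, 13.9 and 12.8% in GO-Rg3-DOX replicates 1 to 3, so replicate 1 of each of these groups stood apart. Without both of these samples, an alternative chosen after seeing the data, 7 of the 10 genes passed an edgeR adjusted p below 0.01 in GO against untreated cells (1 rose, CP, and 6 fell, with TTR added), beside 5 with all samples. In GO-Rg3 2 passed, beside 0, in GO-Rg3-DOX 10, beside 9, and in GO-Rg3 against GO 2, beside 2.

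ALB and AFP lie next to each other on chromosome 4 and both are transcribed from the + strand. The RefSeq promoter table held a window for 6 of the 10 members, and no entry for TTR, GC, GPC3 and CP. The stretches from position −150 to −33 before the RefSeq starts of ALB and AFP are shown because albumin and AFP are the adult and fetal forms of the main plasma carrier. RefSeq gives them on GRCh38.p14, and each was found once on chromosome 4 of GRCh37, at chr4:74269854-74269971 (ALB) and chr4:74301788-74301905 (AFP). Both lie inside the spans annotated for the genes on GRCh37, which begin further upstream than the RefSeq starts. Capitals mark the letters CCAAT or, on the other strand, ATTGG, known as the CCAAT box of many promoters, and these letters were chosen after the stretches were seen.
ALB: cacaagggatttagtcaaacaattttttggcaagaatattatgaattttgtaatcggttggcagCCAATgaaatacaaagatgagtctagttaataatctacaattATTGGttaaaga
AFP: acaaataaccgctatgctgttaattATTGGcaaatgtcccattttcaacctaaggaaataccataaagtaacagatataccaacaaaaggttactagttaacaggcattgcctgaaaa
The letters, searched on both strands, occurred 2 times in the ALB stretch, starting at position −86 on the + strand and −44 on the − strand, and once in the AFP stretch, starting at −125 on the − strand. They also occurred in the 1 window of AMBP and in 1 of the 3 windows of RBP4, and in none of those of AHSG and SERPINA1, and 20.7% of the 35116 RefSeq windows of the same positions held them. A match of letters is a description and not a binding site.

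Levels were compared between genes per length, as CPM per kilobase of the canonical transcript. In untreated cells AFP stood first at 5065 ± 57.2 (SD, n = 3), followed by ALB at 1812 ± 17.1, AMBP at 1121 ± 20.8, RBP4 at 690 ± 20.7 and SERPINA1 at 528 ± 12.6 CPM per kilobase. TTR followed at 421 ± 8.88, GPC3 at 397 ± 1.06, AHSG at 89.8 ± 3.05, GC at 66.2 ± 1.63 and CP at 13.6 ± 0.608 CPM per kilobase. No neighbours in this order overlapped in untreated cells. AFP, ALB, AMBP, RBP4 and SERPINA1 held ranks 1 to 5 by mean in every group, and AHSG, GC and CP held the last 3, but RBP4 (630 to 878) and SERPINA1 (612 to 780) overlapped in GO, as they did in GO-Rg3 and GO-Rg3-DOX. In GO the ranges of AMBP and RBP4 and those of TTR and GPC3 overlapped too. GPC3 ranked above TTR in GO-Rg3 and GO-Rg3-DOX, and in every group when the length of all annotated exons was used. By raw counts AFP ranked 1, 1 and 2 among all genes in the untreated samples, 17, 8 and 10 in GO, 2, 2 and 2 in GO-Rg3, and 11, 5 and 5 in GO-Rg3-DOX. Together the 10 members took 2.37% ± 0.0175 of all counts in untreated and 1.36% ± 0.226 in GO samples (SD, n = 3), and 1.97% ± 0.153 in GO-Rg3 and 2.54% ± 0.438 in GO-Rg3-DOX samples. These ranks and shares are relative to the other genes. Mitochondrially encoded genes took more of the counts in GO and GO-Rg3-DOX than in untreated samples, so a lower rank or share there need not be a fall.

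**Figure D1:**
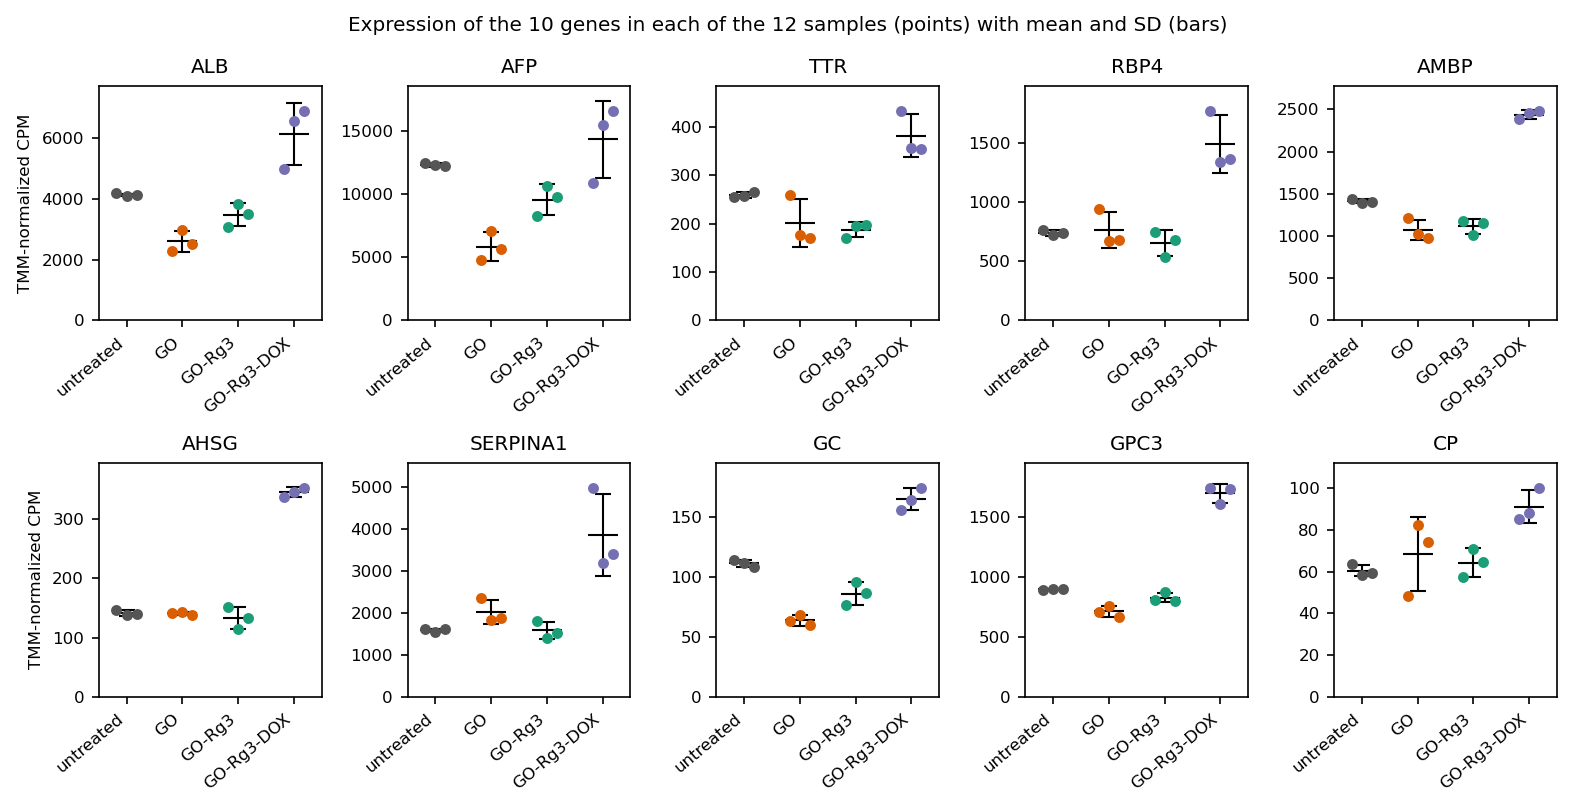
TMM-normalized CPM (y axes, linear from 0) of the 10 genes in the 3 samples of each group (points), with mean and SD (bars). AFP, ALB, GC, AMBP and GPC3 were lower in all GO samples than in any untreated sample. All genes but AFP were higher in all GO-Rg3-DOX samples than in any untreated sample.

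In GO cells, 5 of the 10 genes fell against untreated cells at an adjusted p below 0.01: AFP, GC, ALB, AMBP and GPC3. None rose. Of all 17092 genes tested, 15.4% fell and 12.1% rose by the same rule. The same 5 genes had all 3 GO values below all 3 untreated values, as did 29.9% of all genes. The median log2 fold change of the 10 was −0.35, beside 0.01 over all genes. Only AFP also passed an absolute log2 fold change of 1, as did 2.62% of all genes in the falling direction. ALB, AFP and GC fell in each of the 17 other fits tried. In bulk RNA, fewer cells that express a gene and less of its RNA per cell cannot be told apart.

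In GO-Rg3 cells, 0 of the 10 genes passed against the same untreated samples, where 0.164% of all genes passed in either direction by edgeR's quasi-likelihood test. At an unadjusted p below 0.05 there were 4 members and 13.4% of all genes, and DESeq2 also called 0. The 3 GO-Rg3 values lay below all 3 untreated values for ALB, AFP, TTR, AMBP, GC and GPC3, 6 of 10, as for 16.6% of all genes, and the median of the 10 was −0.21 (log2), beside −0.0011 for all genes. Without the GO and GO-Rg3-DOX samples of highest mitochondrial share, TTR (−0.47, edgeR adjusted p = 0.0014) and AMBP (−0.34, 0.0067) passed. That fit left out no GO-Rg3 or untreated sample, and with all samples the log2 fold changes were also −0.47 and −0.34. The spread was pooled over all groups, so an adjusted p can move with samples of groups outside the comparison.

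In GO-Rg3-DOX cells, 9 of the 10 genes rose against untreated cells and AFP did not pass. By the same rule 25.5% of all genes rose and 30.5% fell. For the same 9 genes all 3 GO-Rg3-DOX values lay above all 3 untreated values, as for 35% of all genes. The median log2 fold change of the 10 was 0.69, beside −0.06 over all genes, and AHSG, SERPINA1 and RBP4 passed an absolute log2 fold change of 1, as did 12.6% of all genes in the rising direction. RBP4 passed it by little, at 1.01, and stood at 0.87 without GO-Rg3-DOX replicate 1. The size of these values depended on the scaling. With library totals in place of TMM factors the median of all genes moved from −0.06 to −0.47, and 5 of the 10 genes still rose (RBP4, AMBP, AHSG, SERPINA1 and GPC3). All 10 genes lay above that median under either scaling, by 0.27 to 1.34 (log2) with TMM and by 0.29 to 1.35 with library totals. A change of scaling shifts all genes by about the same amount, so this likeness was largely set in advance. It is no further support for the calls, and whether the RNA rose in absolute amount was not tested.

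Between GO-Rg3 and GO, both at 400 µg/mL, AFP and GC were higher in GO-Rg3, 2 of 10, as were 7.33% of all genes, and 0 of 10 were lower, as were 6.25%. The GO samples are the same ones that were set against untreated cells. Per the paper, GO-Rg3 flakes were also larger, thicker and less negatively charged than GO flakes. The shares of Rg3 and of these differences between the flakes cannot be told apart. The GO-Rg3 samples lay above all GO samples for 4 members (ALB, AFP, GC and GPC3; 20.1% of all genes) and below them for 1 (SERPINA1; 18.9%). Neither call was firm: 0 members passed when only these 6 samples were fitted, and 0 passed without GO replicate 3, without GO-Rg3 replicate 2 or without GO-Rg3 replicate 3.

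**Figure D2:**
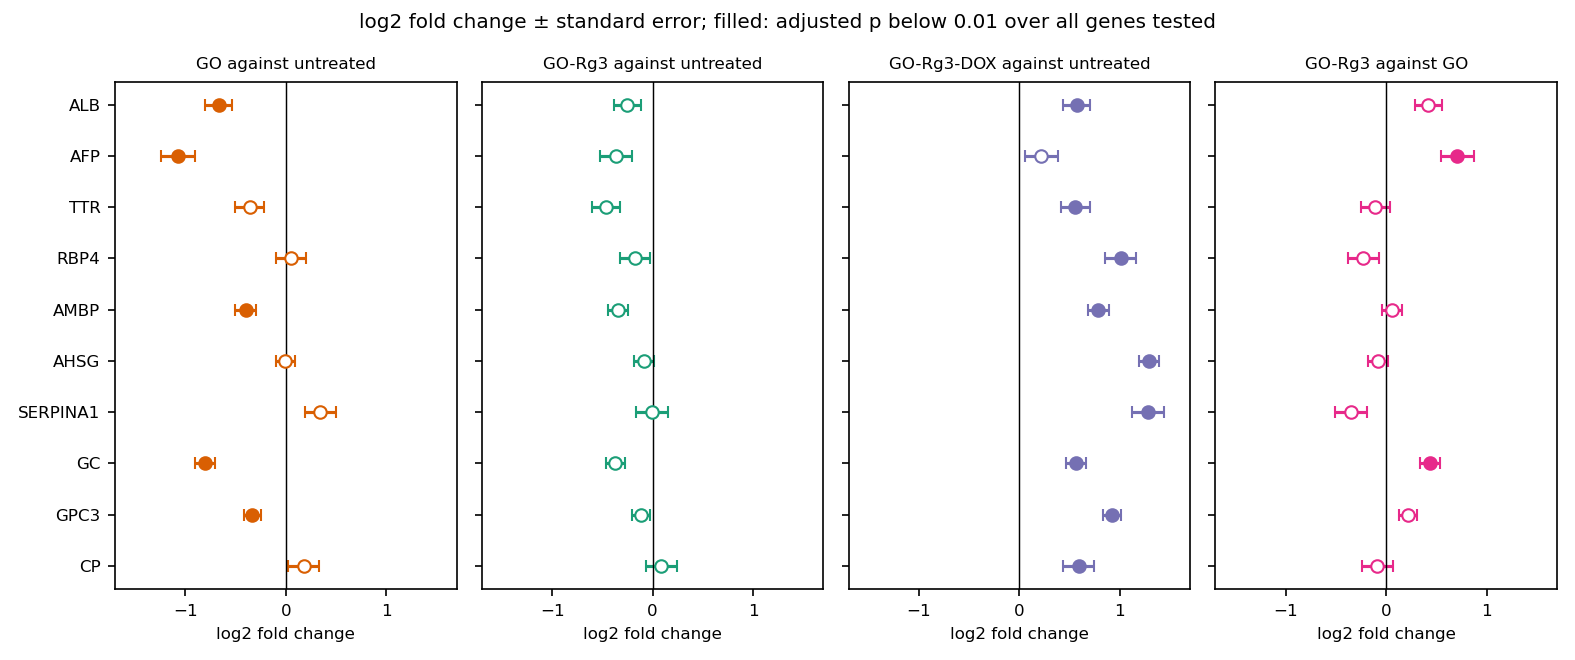
log2 fold change (x axes) with its standard error for the 10 genes in the 4 comparisons, with filled points at an adjusted p below 0.01 over all genes tested. 5 points were filled on the lower side for GO, 0 for GO-Rg3, 9 on the higher side for GO-Rg3-DOX and 2 on the higher side for GO-Rg3 against GO.

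AFP (chr4:74296855-74321891, + strand, GRCh37) had 12439, 12255 and 12167 CPM in untreated replicates 1 to 3, 4801, 7039 and 5669 in GO, 8230, 10645 and 9744 in GO-Rg3, and 10884, 15472 and 16544 in GO-Rg3-DOX. All 3 GO samples lay below all other samples, the GO-Rg3 samples lay between the GO and the untreated ones, and the GO-Rg3-DOX samples lay on both sides of the untreated ones, with replicate 1 below. AFP fell by 1.07 ± 0.17 (log2 fold change ± SE) in GO, to 0.475 of the untreated level (edgeR adjusted p = 0.00016), the largest fall among the 10. In GO-Rg3 its log2 fold change was −0.37 ± 0.16 (edgeR adjusted p = 0.34), and it was 0.71 ± 0.16 higher in GO-Rg3 than in GO (0.0059). The call between GO-Rg3 and GO was lost without GO replicate 1, whose AFP was the lowest (0.59, edgeR adjusted p = 0.019), without GO replicate 3 (0.69, 0.024) and without GO-Rg3 replicate 2 (0.62, 0.026) or 3 (0.69, 0.024). In GO-Rg3-DOX the log2 fold change was 0.22 ± 0.16 (edgeR adjusted p = 0.25). That value moved with the processing: it was −0.18 with library totals, 0.38 (edgeR adjusted p = 0.0071) without the 2 samples of highest mitochondrial share and 0.76 (4.7e-05) with an offset for GC content.

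ALB (chr4:74262831-74287199, + strand) had 4184, 4111 and 4123 CPM in untreated, 2301, 2988 and 2515 in GO, 3090, 3837 and 3508 in GO-Rg3, and 4986, 6553 and 6892 in GO-Rg3-DOX replicates 1 to 3. The 4 groups did not overlap: GO was lowest, then GO-Rg3, untreated and GO-Rg3-DOX. ALB fell by 0.67 ± 0.13 in GO (edgeR adjusted p = 0.0012). It stood at −0.25 ± 0.13 in GO-Rg3 (edgeR adjusted p = 0.46) and rose by 0.57 ± 0.13 in GO-Rg3-DOX (0.0016). The rise was lost with library totals (0.17, edgeR adjusted p = 0.40) and missed the threshold without GO-Rg3-DOX replicate 3 (0.48, 0.011). Between GO-Rg3 and GO the difference of 0.42 ± 0.13 did not pass (edgeR adjusted p = 0.031), and it passed with DESeq2 (0.0084).

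GC (chr4:72607413-72669758, − strand), the vitamin D-binding protein and a member of the albumin family, followed ALB at a much lower level. Its CPM was 114, 112 and 108.7 in untreated, 63.0, 68.5 and 60.0 in GO, 76.5, 95.8 and 86.6 in GO-Rg3, and 156, 164 and 175 in GO-Rg3-DOX samples. The groups stood in the same order as for ALB, again with no overlap. GC fell by 0.81 ± 0.10 in GO, which gave the smallest p of the 10 in that comparison (edgeR adjusted p = 2.9e-05). Its log2 fold change was −0.37 ± 0.10 in GO-Rg3 (edgeR adjusted p = 0.076), and it rose by 0.57 ± 0.10 in GO-Rg3-DOX (0.00011). The rise was lost with library totals (0.15, edgeR adjusted p = 0.32). GC was 0.43 ± 0.10 higher in GO-Rg3 than in GO (edgeR adjusted p = 0.0051), and this call was lost without GO replicate 3 (0.39, 0.029), without GO-Rg3 replicate 2 (0.35, 0.019) and without GO-Rg3 replicate 3 (0.43, 0.022).

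The ratio of AFP to ALB counts within a sample does not depend on the scaling of the library. It was 2.97, 2.98 and 2.95 in untreated, 2.09, 2.36 and 2.25 in GO, 2.66, 2.77 and 2.78 in GO-Rg3, and 2.18, 2.36 and 2.40 in GO-Rg3-DOX samples. All 9 treated samples lay below all 3 untreated ones, and GO and GO-Rg3-DOX covered nearly the same range although ALB fell in GO and rose in GO-Rg3-DOX. The log2 ratio differed from untreated by −0.41 in GO, −0.12 in GO-Rg3 and −0.36 in GO-Rg3-DOX, and GO-Rg3 lay 0.30 above GO. The exact two-sided permutation test gave p = 0.1 for each of these 4 differences, the smallest that 3 against 3 samples allow (0.1333 adjusted over the 8 ratio tests), so none could reach 0.05.

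**Figure D3:**
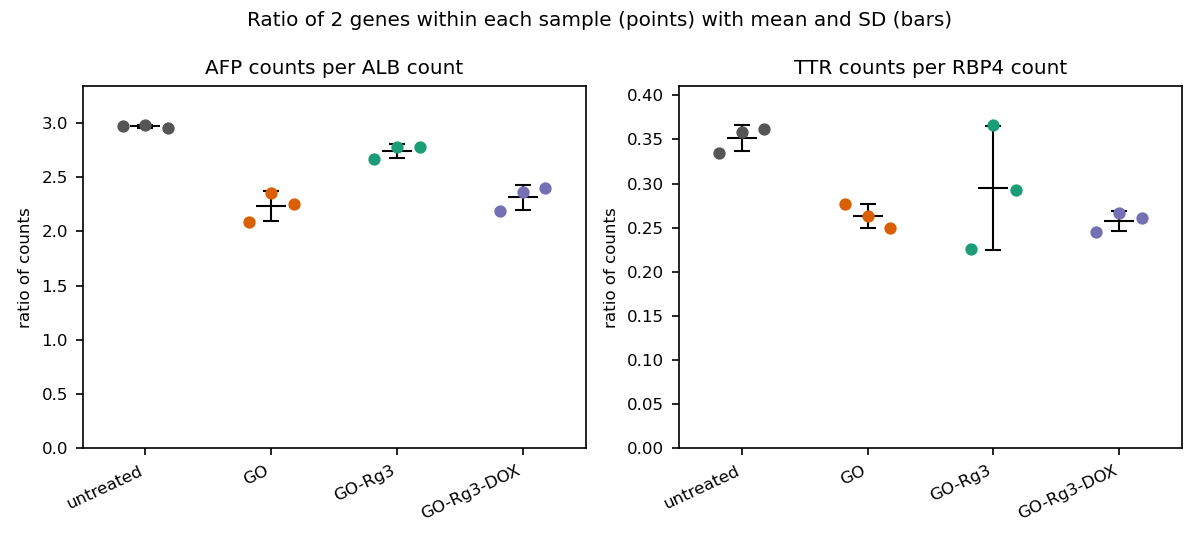
Ratio of AFP to ALB counts (left) and of TTR to RBP4 counts (right) in each sample (points; y axes linear from 0), with mean and SD of each group (bars). AFP to ALB lay between 2.95 and 2.98 in untreated samples and at 2.78 or below in all treated ones.

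TTR and RBP4 form the retinol carrier of plasma: RBP4 binds retinol, and TTR, which also carries thyroxine, holds RBP4 in the circulation. TTR (chr18:29136972-29178796, + strand) had 255, 258 and 266 CPM in untreated, 259, 177 and 170 in GO, 170, 196 and 198 in GO-Rg3, and 433, 357 and 356 in GO-Rg3-DOX replicates 1 to 3. GO replicate 1, the sample of highest mitochondrial share, lay among the untreated samples and the other two GO samples lay below them. The log2 fold change of TTR in GO was −0.36 ± 0.14 (edgeR adjusted p = 0.052), and it passed without GO replicate 1 (−0.58, 0.00058). It was −0.47 ± 0.14 in GO-Rg3 (edgeR adjusted p = 0.12), the lowest of the 10 there, and TTR rose by 0.56 ± 0.14 in GO-Rg3-DOX (0.0027). That rise was lost without GO-Rg3-DOX replicate 1, where TTR was highest (0.46, edgeR adjusted p = 0.017), without untreated replicate 1 (0.54, 0.012) or 2 (0.55, 0.011), and with library totals (0.13, 0.30).

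RBP4 (chr10:95351444-95361501, − strand) had 763, 719 and 734 CPM in untreated, 939, 674 and 683 in GO, 750, 534 and 675 in GO-Rg3, and 1767, 1335 and 1362 in GO-Rg3-DOX samples. Only the GO-Rg3-DOX samples stood clear of the untreated ones. RBP4 rose by 1.01 ± 0.15 there (edgeR adjusted p = 3.3e-05), about the untreated level times 2.01, and by 0.87 without replicate 1, the sample of highest mitochondrial share, while its log2 fold change was 0.05 ± 0.15 in GO (0.81) and −0.18 ± 0.15 in GO-Rg3 (0.68). TTR counts per RBP4 count were 0.334 to 0.362 in untreated, 0.249 to 0.276 in GO and 0.245 to 0.267 in GO-Rg3-DOX samples, with no overlap with untreated (exact two-sided permutation p = 0.1 each, the smallest possible; 0.1333 adjusted). In GO-Rg3 samples the ratio ranged from 0.226 to 0.366 and overlapped both untreated and GO.

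AMBP encodes a precursor that is cut into alpha-1-microglobulin, which binds heme, and bikunin, a protease inhibitor. AMBP (chr9:116822407-116840608, − strand) had 1443, 1392 and 1407 CPM in untreated, 1210, 1023 and 980.1 in GO, 1183, 1011 and 1147 in GO-Rg3, and 2384, 2451 and 2479 in GO-Rg3-DOX samples. GO and GO-Rg3 overlapped each other below the untreated samples, and GO-Rg3-DOX lay far above them. AMBP fell by 0.40 ± 0.10 in GO (edgeR adjusted p = 0.0053), and its log2 fold change in GO-Rg3 was of like size, −0.34 ± 0.10, and did not pass (0.11). It rose by 0.79 ± 0.10 in GO-Rg3-DOX (edgeR adjusted p = 6.5e-06). The fall in GO kept its direction but missed the threshold without GO replicate 2 (−0.37, edgeR adjusted p = 0.021), without GO replicate 3 (−0.34, 0.031) and without untreated replicate 1, 2 or 3 (−0.39, −0.41 and −0.41; 0.025, 0.018 and 0.021).

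AHSG, or fetuin-A, keeps calcium phosphate from precipitating in blood, and SERPINA1, or alpha-1-antitrypsin, inhibits neutrophil elastase. AHSG (chr3:186330849-186339107, + strand) had 147, 138 and 139 CPM in untreated, 142, 143 and 138 in GO, 152, 115 and 133 in GO-Rg3, and 337, 346 and 353 in GO-Rg3-DOX samples. The first 3 groups overlapped, and GO-Rg3-DOX stood clear above all of them. AHSG rose by 1.29 ± 0.10 in GO-Rg3-DOX, 2.44 times the untreated level and the smallest p of the 10 (edgeR adjusted p = 3.0e-08). In GO its log2 fold change was −0.0047 ± 0.10 (edgeR adjusted p = 0.97) and in GO-Rg3 −0.08 ± 0.10 (0.77), and the sign of both changed with the processing.

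SERPINA1 (chr14:94843084-94857030, − strand) had 1612, 1545 and 1608 CPM in untreated, 2344, 1840 and 1867 in GO, 1812, 1412 and 1525 in GO-Rg3, and 4983, 3193 and 3408 in GO-Rg3-DOX samples. It was the only member with all GO samples above all untreated ones, as for 28.6% of all genes, and replicate 1 was highest in each treated group. Its log2 fold change in GO was 0.34 ± 0.16 and did not pass (edgeR adjusted p = 0.088). SERPINA1 rose by 1.28 ± 0.16 in GO-Rg3-DOX (edgeR adjusted p = 4.2e-06), and by 1.05 without the 2 samples of highest mitochondrial share. In GO-Rg3 it stood at −0.0049 ± 0.16 (edgeR adjusted p = 1.0), a value whose sign changed with the processing.

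CP encodes ceruloplasmin, the copper-carrying ferroxidase of plasma. CP (chr3:148880197-148939616, − strand) shares 1420 exon bases with HPS3 on the opposite strand, and whether the counting used strand is not given in the sources used here, so its counts are uncertain. It had 63.4, 58.2 and 59.5 CPM in untreated, 48.3, 82.4 and 74.1 in GO, 57.2, 70.9 and 64.5 in GO-Rg3, and 85.0, 87.9 and 100.2 in GO-Rg3-DOX samples. The GO samples lay on both sides of the untreated ones, with replicate 1 below. CP rose by 0.59 ± 0.15 in GO-Rg3-DOX (edgeR adjusted p = 0.0033), and its log2 fold change was 0.18 ± 0.15 in GO (0.37) and 0.09 ± 0.15 in GO-Rg3 (0.86). In GO it passed as a rise without the 2 samples of highest mitochondrial share (0.37, edgeR adjusted p = 0.0092). The rise in GO-Rg3-DOX was lost with library totals (0.18, edgeR adjusted p = 0.44), without GO-Rg3-DOX replicate 3 (0.52, 0.018) and without untreated replicate 2 (0.57, 0.015) or 3 (0.58, 0.013).

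GPC3 encodes glypican-3, a heparan sulfate proteoglycan anchored in the membrane that is used as a tissue marker of hepatocellular carcinoma. It is, like AFP, an oncofetal gene, and unlike the other members its product is not mainly a plasma protein. GPC3 (chrX:132669773-133121127, − strand) had 896, 900.1 and 901 CPM in untreated, 710, 763 and 669 in GO, 811, 875 and 802 in GO-Rg3, and 1748, 1611 and 1740 in GO-Rg3-DOX samples. The order of the groups was that of ALB and GC, with no overlap. GPC3 fell by 0.33 ± 0.09 in GO (edgeR adjusted p = 0.0076), stood at −0.12 ± 0.09 in GO-Rg3 (0.64) and rose by 0.92 ± 0.09 in GO-Rg3-DOX (3.3e-07), where AFP did not pass. The fall in GO missed the threshold with RLE scaling (−0.31, edgeR adjusted p = 0.015), with at least 10 counts asked for in every sample (−0.30, 0.011), with only the 6 samples compared (−0.32, 0.010), without GO replicate 3 (−0.28, 0.046) and without untreated replicate 1, 2 or 3 (−0.33 each; 0.028, 0.029 and 0.031).

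Base composition moved with the fold changes. Across 16622 genes, which share libraries and are not independent replicates, the log2 fold change and the GC content of the transcript had a Spearman correlation of 0.44 in GO, 0.20 in GO-Rg3 and 0.37 in GO-Rg3-DOX, and −0.44 for GO-Rg3 against GO. AFP (39% GC), CP (39.4%), ALB (40.8%) and GC (43.8%) had the lowest GC content of the 10 and AMBP (56.6%) the highest. With an offset for GC content in the fit, the fall in GO was 0.78 for AFP (edgeR adjusted p = 0.00012), 0.43 for ALB (0.0036) and 0.66 for GC, all smaller than without it, while AMBP fell by 0.64 and TTR by 0.46 (0.0053), both more than without it. CP then rose in GO (0.45, edgeR adjusted p = 0.0019), and all 10 genes, AFP included, rose in GO-Rg3-DOX.

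**Figure D4:**
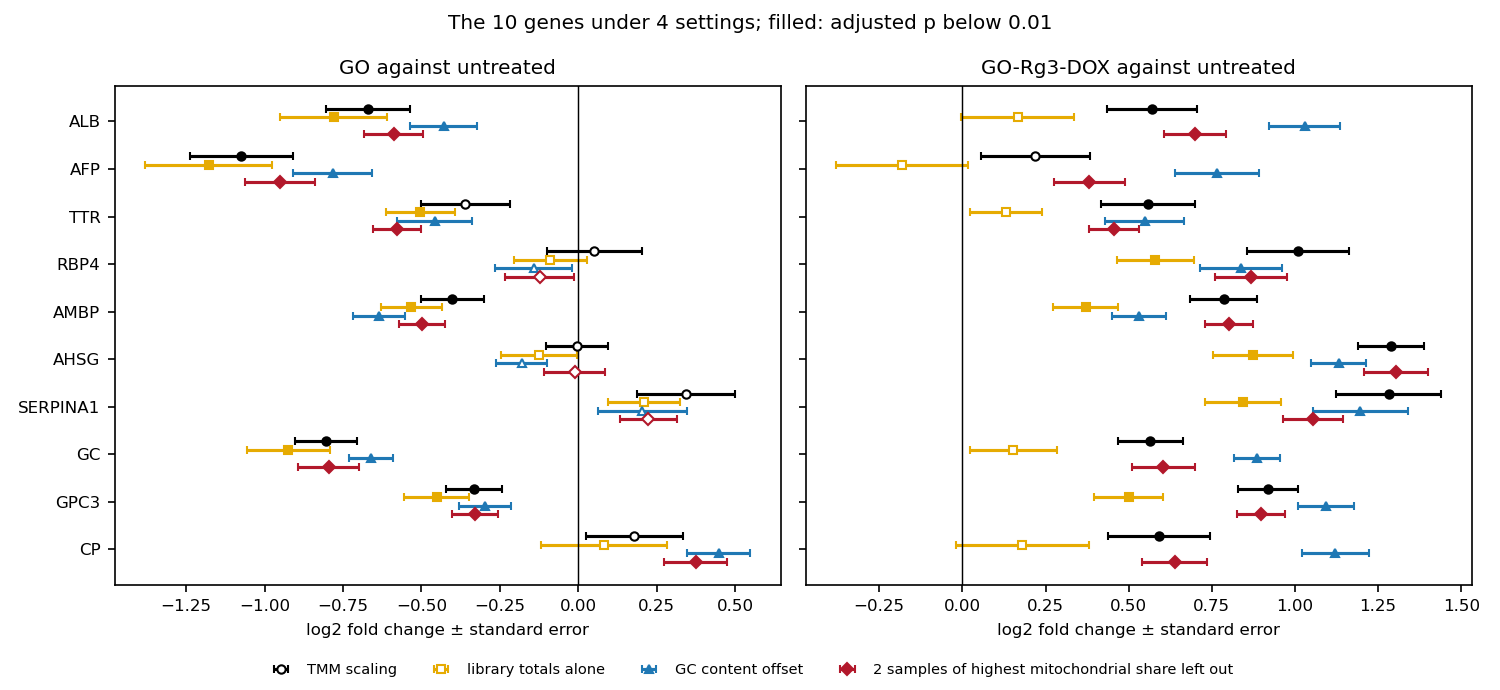
log2 fold change with its standard error (x axes) of the 10 genes in GO and in GO-Rg3-DOX against untreated under 4 settings: TMM scaling of all 12 samples, library totals alone, an offset for GC content, and all but the 2 samples of highest mitochondrial share. Filled points passed an adjusted p below 0.01. AFP, ALB, GC, AMBP and GPC3 fell in GO under all 4, and AFP in GO-Rg3-DOX ranged from −0.18 to 0.76.

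Other plasma proteins of hepatocytes were compared through a list of 31 genes, of which 29 were tested. In GO cells 4 rose and 2 fell, beside 12.1% and 15.4% of all genes, with a median log2 fold change of 0.03. With DESeq2, and with only the 6 samples compared, 7 rose and 3 fell. The number that fell was 4 without GO replicate 1 and 1 without GO replicate 3 or without any 1 of the untreated samples. The transferrin gene TF (−0.40 ± 0.09, edgeR adjusted p = 0.0026) and the fibrinogen chain FGG (−0.60 ± 0.11, 0.00077) were the 2 that fell, while the C1 inhibitor gene SERPING1 (0.72 ± 0.12, 0.00032) and the heparin cofactor gene SERPIND1 (0.63 ± 0.11, 0.00044) rose. The other 2 that rose, named after their values were seen, were SERPINA3 (2.84 ± 0.20, edgeR adjusted p = 2.0e-07) and LRG1 (0.63 ± 0.13, 0.0014). SERPINA3 stood at a low level, 0.370 to 0.575 CPM in untreated and 3.26 to 3.65 in GO samples. In GO-Rg3-DOX cells 25 of the 29 rose and 0 fell, beside 25.5% and 30.5% of all genes, with a median of 1.01, among them TF (0.63 ± 0.09, edgeR adjusted p = 1.8e-05) and VTN, the gene of the adhesion protein vitronectin (1.18 ± 0.14, 3.6e-06). In GO-Rg3 cells 0 of 29 passed with edgeR and 6 had an unadjusted p below 0.05, beside 13.4% of all genes. But 1 rose with DESeq2 and also with edgeR under RLE scaling, without mitochondrial genes, with either other filter, with the replicate block, with the GC offset and without the 2 samples of highest mitochondrial share.

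Transcription factors known to act on promoters of liver genes were described through a list of 14, of which 13 were tested. In GO cells 5 rose and 1 fell, beside 12.1% and 15.4% of all genes, with a median of 0.42, and 3 rose without untreated replicate 1. HNF4A, the nuclear receptor that drives many hepatocyte genes, rose by 0.63 ± 0.11 (edgeR adjusted p = 0.00056), and ZHX2, a known postnatal repressor of AFP, rose by 0.65 ± 0.10 (0.00011). PROX1 (0.64 ± 0.13, edgeR adjusted p = 0.0016) and FOXA2 (0.68 ± 0.14, 0.0016) rose as well, and so did ZFHX3, a repressor of AFP transcription (0.70 ± 0.15, 0.0018), while FOXA1 fell by 0.62 ± 0.08 (6.8e-05). ZFHX3 and FOXA1 were named after their values were seen. In GO-Rg3-DOX cells 0 rose and 8 fell, beside 25.5% and 30.5% of all genes, with a median of −1.02, in the same samples in which 9 of the 10 members rose. HNF4A fell by 1.02 ± 0.12 (edgeR adjusted p = 1.8e-06), ZHX2 by 0.89 ± 0.10 (1.2e-06) and FOXA2 by 1.32 ± 0.15 (1.5e-06). FOXA1, again named after its values were seen, fell by 3.57 ± 0.10 there (edgeR adjusted p = 2.6e-12). In GO-Rg3 cells 0 of 13 passed with edgeR or with DESeq2, and 2 had an unadjusted p below 0.05, beside 13.4% of all genes.

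**Figure D5:**
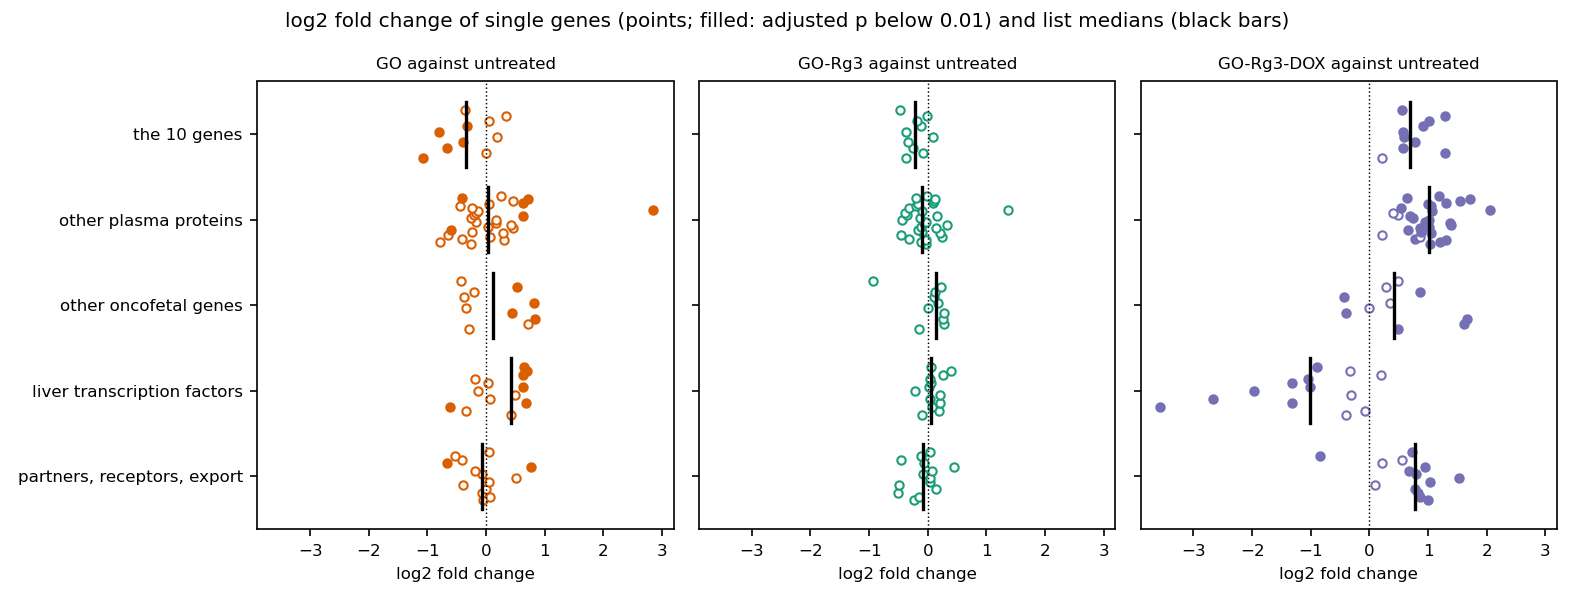
log2 fold change (x axes) of single genes (points; filled at an adjusted p below 0.01) and the median of each list (black bars) in the 3 treatments against the same untreated samples. In GO-Rg3-DOX the medians were 0.69 for the 10 genes, 1.01 for other plasma proteins and −1.02 for the transcription factors.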

How the data were processed

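Per the labels and the study's methods, RNA of Huh7 cells was made into libraries with a stranded mRNA kit, and the submitters' processing notes name GRCh37 and featureCounts. The values deposited by the authors are raw counts per Ensembl gene, whole numbers without normalization. The annotation release and use of strand are not given in the sources used here. The libraries carry no molecular identifiers.

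From the counts, 17092 of 63677 genes were kept by the filter of the study (a count of 10 or more in 3 or more samples). Libraries were scaled by TMM in edgeR 4.0.16 (R 4.3.3), and all 12 samples were fitted in 1 model with edgeR's quasi-likelihood test. P-values were adjusted by Benjamini-Hochberg over all genes tested in each of 4 comparisons, with calls made below 0.01. The study's further rule of an absolute log2 fold change above 1 is given beside it. Ratios of counts were compared by exact two-sided permutation tests. The study used DESeq2, which was an alternative here (1.42.0). Other alternatives were RLE scaling, library totals, mitochondrial genes (37) left out, other filters (35604 and 13706 genes), the replicate block, a loess offset (span 0.5) for transcript GC content with and without the block (16622 genes, 97.3%), fits to the 6 compared samples alone, fits without single samples, and other thresholds. In every fit the spread was pooled over all groups fitted, also where a group was left with 2 samples, although untreated samples lay closer together than treated ones.

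Positions, lengths, GC content and overlaps came from a GENCODE annotation lifted to GRCh37. The promoter stretch stops at position −33 because another annotated ALB transcript starts just after it. All 10 members are named in each comparison. From the other lists (plasma proteins, oncofetal genes, transcription factors, partners, markers of other cell types) up to 4 called genes of highest mean CPM are named, and the 5 genes most like ALB and AFP. Some genes of the lists are counted but not reported by name here. A few genes named after their values were seen are marked as such, and the levels of COL1A1 and SERPINA3 were also added after they were seen. The members and lists were chosen with earlier results of these data known. On simulated counts for GO against untreated (17092 genes), 191 of 200 changed genes were recovered with 1 false call. All changes set there had an absolute log2 fold change of 1, in genes of higher counts, with the same trend of spread in all groups. Only AFP of the 10 members passed that size in GO, and real spread differed between groups, so these rates need not hold here. Tables and figures were made with Python 3.11.15, pandas 2.3.3, scipy 1.17.1 and matplotlib 3.10.9.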

Additional observations from a re-analysis of the deposited data

How the results depend on the processing

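Over the 10 genes and 4 comparisons, 591 of 680 values from other settings kept their direction and side of the threshold, 32 kept the direction and lost the call, 19 gained a call and 38 changed sign. The number of genes called in GO (5) was 3 to 6 when single samples were left out, with 3 without any 1 of the untreated samples or without GO replicate 3, and 1 when an absolute log2 fold change above 1 was also asked for. In GO-Rg3 (0) it was 0 whichever sample was left out, 1 with no filter on low counts and 2 without the samples of highest mitochondrial share, an alternative chosen after seeing the data. In GO-Rg3-DOX (9) it was 7 to 9 with single samples left out, 5 with library totals alone and 3 with the fold threshold. For GO-Rg3 against GO (2) it was 0 to 2 with single samples left out, 0 with only the 6 samples compared and 0 with the fold threshold. Apart from settings whose own construction (fewer samples, a stricter rule) shows it, the cause was not tested.

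Signs changed only for small values and for AFP in GO-Rg3-DOX, which was −0.18 with library totals (log2 fold changes throughout). For GO against untreated, RBP4 was −0.089 with library totals, −0.14 with the GC offset, −0.15 with the GC offset and block, and −0.12 without GO replicate 1 and without the samples of highest mitochondrial share (−0.12 to 0.13 with single samples left out). AHSG was 0.015 with RLE scaling and with DESeq2, 0.0045 without mitochondrial genes, 0.024 with at least 10 counts in every sample, 0.0040 with only the 6 samples compared, 0.024 without untreated replicate 1 and 0.018 without GO replicate 3 (−0.021 to 0.024 with single samples left out). For GO-Rg3 against untreated, AHSG was 0.012 without GO-Rg3 replicate 2 (−0.19 to 0.012). SERPINA1 was 0.028 with RLE scaling and with DESeq2, 0.022 with library totals, 0.021 without mitochondrial genes, 0.00040 with at least 10 counts in every sample, 0.018 with the GC offset, 0.0082 with the GC offset and block, 0.069 with only the 6 samples, and above 0 in 4 of the 6 fits that left out a sample (−0.11 to 0.071). For GO-Rg3 against GO, TTR was 0.065 with library totals, 0.024 with the GC offset, 0.040 with the GC offset and block, and 0.11 without GO replicate 1 and without the samples of highest mitochondrial share (−0.22 to 0.11). AMBP was −0.0037 without GO replicate 3 (−0.0037 to 0.15). AHSG was 0.068 with library totals, 0.11 with the GC offset, 0.10 with the GC offset and block, and 0.016 without GO-Rg3 replicate 2. CP was 0.034 with library totals and 0.067 without GO replicate 2 (−0.29 to 0.067). The TTR to RBP4 log2 ratio in GO-Rg3 against GO (0.14) ranged from −0.029 to 0.32 with single samples left out and was −0.029 without GO-Rg3 replicate 2.

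A fit with a replicate block called 5 genes in GO, 0 in GO-Rg3 and 9 in GO-Rg3-DOX, and 3 in GO-Rg3 against GO, where ALB was added (0.42, edgeR adjusted p = 0.0071). With the GC offset and block the counts were 7, 0, 10 and 3. Of the correlations between the deviations of same-numbered samples 7 of 18 were above 0.1 (mean 0.0915), against 1 of 36 for differently numbered ones (mean −0.0451), and 23 of 36 best matches had the same number. This is a hint of pairing from the data. No label ties the numbers and not every pair was above 0.1, so the numbers were not taken as pairs. A lost call under the block is no weaker effect. For the other plasma protein genes in GO, 6 rose and 4 fell with the block.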

Other observations

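Beside AFP and GPC3, other oncofetal genes of the liver were followed. Of 11 listed, 10 were tested, and in GO cells 4 rose and 0 fell by edgeR's quasi-likelihood test: the fetal growth factor gene IGF2 (0.83 ± 0.14, log2 ± SE, edgeR adjusted p = 0.00025), IGF2BP1, which binds IGF2 mRNA (0.45 ± 0.09, 0.0010), the keratin gene KRT19 (0.82 ± 0.20, 0.0049) and the stem cell factor gene SALL4 (0.53 ± 0.11, 0.0014). Of all genes tested, 12.1% rose and 15.4% fell in GO. With library totals 2 of the 10 rose and 1 fell, and 1 fell without GO replicate 1 (3 rose) or 2 (4 rose). In GO-Rg3-DOX cells 4 rose and 2 fell, beside 25.5% and 30.5% of all genes. With library totals 2 rose and 2 fell. The number that fell was 0 without untreated replicate 2, and 1 without untreated replicate 1 or GO-Rg3-DOX replicate 2 or 3. IGF2 rose by 1.66 ± 0.14 (edgeR adjusted p = 6.9e-08) and the imprinted gene PEG10 by 0.87 ± 0.12 (1.7e-05), as did H19 (1.62 ± 0.29, 0.00015) and EPCAM (0.49 ± 0.10, 0.00072), both named after their values were seen. IGF2BP1 fell by 0.39 ± 0.09 (0.0012) and LIN28B fell by 0.43 ± 0.11 (0.0037). In GO-Rg3 cells 0 of 10 passed with edgeR or with DESeq2, and 2 had an unadjusted p below 0.05, beside 13.4% of all genes. Of 16 genes for partners, receptors and export of the members, 14 were tested. By the same rule 1 rose and 1 fell in GO, beside 12.1% and 15.4% of all genes. In GO cells LRP2, the endocytic receptor megalin, rose (0.76 ± 0.17, edgeR adjusted p = 0.0025) and MCFD2, which helps to carry cargo out of the endoplasmic reticulum, fell (−0.66 ± 0.12, 0.00054). The call of LRP2, the only rise, was lost with library totals, without untreated replicate 1 and without GO replicate 2, and 2 genes fell without GO replicate 1 or 2. In GO-Rg3-DOX cells 10 of the 14 rose and 1 fell, beside 25.5% and 30.5% of all genes. With library totals only 3 rose and 1 fell. The export receptor gene SURF4 rose by 0.73 ± 0.09 (edgeR adjusted p = 4.5e-06), and SLC40A1, the iron exporter gene, was the 1 that fell (−0.84 ± 0.15, 0.00018; named after its values were seen). In GO-Rg3 cells 0 of 14 passed with edgeR or with DESeq2, and 4 had an unadjusted p below 0.05, beside 13.4% of all genes. Of the 6 markers of other cell types 2 were tested, and COL1A1 rose in GO-Rg3-DOX (2.55 ± 0.63, edgeR adjusted p = 0.0022) at levels of 0.343 to 0.791 CPM.

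Between GO-Rg3 and GO, 3 of the 29 other plasma protein genes were lower in GO-Rg3 and 0 were higher, beside 6.25% and 7.33% of all genes. The 3 were SERPING1 (−0.59 ± 0.12, edgeR adjusted p = 0.0027), SERPIND1 (−0.53 ± 0.11, 0.0030) and SERPINA3 (−1.47 ± 0.18, 5.8e-05). The number that was lower was 1 without GO-Rg3 replicate 2 or 3 and with only the 6 samples compared, and 6 (with 2 higher) without GO-Rg3 replicate 1. SERPINA3, the antichymotrypsin gene, was at 0.370 to 0.575 CPM in untreated, 3.26 to 3.65 in GO, 1.08 to 1.41 in GO-Rg3 and 1.81 to 2.33 in GO-Rg3-DOX samples. Of the 13 transcription factors tested, 2 were lower in GO-Rg3 than in GO and 1 was higher, beside 6.25% and 7.33% of all genes. HNF4A (−0.62 ± 0.11, edgeR adjusted p = 0.0015) and ZHX2 (−0.60 ± 0.10, 0.00054) were lower, and FOXA1 was higher (0.69 ± 0.08, 6.7e-05). Both lower calls were lost with only the 6 samples compared, and the number of lower transcription factors was 1 without GO-Rg3 replicate 3 or with library totals, 4 without GO-Rg3 replicate 1 and 5 with the replicate block.

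The genes most like ALB and AFP were ranked among 8960 genes with a mean of at least 10 CPM, by the root mean square difference of log2 CPM, relative to the untreated mean, over the 12 samples. CD55 (0.0759), IDH1 (0.0781), FGG (0.0854), KDELC1 (0.10) and ASAH1 (0.101) were nearest to ALB. GC came 15th at 0.128, and AFP, its neighbour on the chromosome, 476th at 0.284. CAT (0.0895), SCP2 (0.0914), C11orf54 (0.103), RCN2 (0.109) and GATM (0.115) were nearest to AFP, with GC 124th and ALB 157th. The 5 nearest genes of each had a GC content from 37.2% (FGG) to 45.0% (KDELC1), low like that of ALB and AFP, and fold changes moved with GC content. Whether the likeness follows from GC content was not tested. These are descriptions over samples that share libraries and groups, with no test.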
